A study of Rattus norvegicus with 6 samples.

Results

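Alpha- and beta-tubulin are the subunits of microtubules, and mammals carry several genes, called isotypes, for each. The isotypes examined here were Tuba1a, Tuba1b and Tuba4a among alpha-tubulins and Tubb2a, Tubb2b, Tubb3, Tubb4a, Tubb4b, Tubb5 and Tubb6 among beta-tubulins. They were chosen as the rows of the deposited gene tables that bear these symbols. Of the 10 symbols, 9 had a row among the 30498 genes, and Tuba1a had none. The tables came from brains of newborn rats (Rattus norvegicus), 3 libraries from pups of control dams and 3 from pups of dams kept on caloric restriction (CR), which restricts the growth of the fetus. Every pup came by Caesarean section, and its tissue, labelled whole brain, was taken at once; strain, sex, age beyond birth and the number of litters or pups per library are not given in the labels. P-values therefore measure the spread between these libraries. The Y-linked sums given below differed within each group, so the libraries of a group were not all made from the same pup.

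An alpha and a beta subunit bind to form the dimer that polymerizes into microtubules, the tracks for axonal transport and the frame of growing neurites. The isotypes are closely alike in sequence and differ mainly in the acidic tail at the carboxy terminus, where motors, microtubule-associated proteins and modifying enzymes act. Tuba1a, Tubb2b and Tubb3 are well known in the developing brain, since their mutations cause malformations of the cortex in humans, and Tubb3 is widely used as a marker of neurons.

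The 4 rows that passed the test below are shown by the sequence before their start, because these rows differed between the groups and their promoters let a reader see how unlike the genes are outside their coding parts. The sequences are the 250 bases before the transcription start in RefSeq, build GRCr8, on the strand of the gene and written 5′ to 3′. Capitals mark every match, on either strand, to TATAA (the core of a TATA box), to CCAAT (the CCAAT box), to GGGCGG (a motif of the factor Sp1) or to CACGTG (an E-box). All 10 symbols had a promoter in that table.
Tuba4a (chr9:84162585-84162834, minus strand): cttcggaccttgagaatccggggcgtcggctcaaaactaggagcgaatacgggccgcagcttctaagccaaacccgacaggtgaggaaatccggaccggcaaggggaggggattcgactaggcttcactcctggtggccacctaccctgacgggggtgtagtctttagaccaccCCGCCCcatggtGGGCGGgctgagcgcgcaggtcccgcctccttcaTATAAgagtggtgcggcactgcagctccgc
Tubb2a (chr17:31001936-31002185, plus strand): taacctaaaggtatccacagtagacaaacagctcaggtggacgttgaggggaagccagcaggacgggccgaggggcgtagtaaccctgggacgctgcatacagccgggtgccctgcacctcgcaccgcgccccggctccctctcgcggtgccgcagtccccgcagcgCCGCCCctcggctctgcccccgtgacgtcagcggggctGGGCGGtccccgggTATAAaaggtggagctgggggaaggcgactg
Tubb4b (chr3:28438456-28438705, minus strand): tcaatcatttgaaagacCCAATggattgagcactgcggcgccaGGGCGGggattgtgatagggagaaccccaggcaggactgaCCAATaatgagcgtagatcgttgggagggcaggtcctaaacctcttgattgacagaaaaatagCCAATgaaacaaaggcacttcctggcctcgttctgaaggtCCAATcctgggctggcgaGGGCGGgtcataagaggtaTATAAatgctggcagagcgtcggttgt
Tubb2b (chr17:30952836-30953085, plus strand): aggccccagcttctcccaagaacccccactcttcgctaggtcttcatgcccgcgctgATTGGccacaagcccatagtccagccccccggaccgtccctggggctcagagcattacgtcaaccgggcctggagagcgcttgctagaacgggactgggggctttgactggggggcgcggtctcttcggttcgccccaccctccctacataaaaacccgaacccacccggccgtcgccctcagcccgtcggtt

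TATAA was found in 5 of the 10 promoters, against 24.1% of 27457 promoters of the same length. In Tubb4b its first base lay 27 bases before the start, in Tuba4a 30 bases and in Tubb2a 31 bases before it. Tubb3 and Tuba1a also held TATAA, 34 and 60 bases before the start, and the Tubb2b window had none. CCAAT was found in 7 of 10 promoters (34.3% of all), with 4 matches in Tubb4b, 1 in Tubb2b and none in Tuba4a or Tubb2a. GGGCGG was found in 8 of 10 (32.4% of all), the exceptions being Tubb2b and Tubb4a, and CACGTG in 1 of 10, Tubb5 (5.79% of all). A match describes the letters only.

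Overlapping gene models limit 3 of the rows, and their coordinates are those of the tables, on mRatBN7.2. The row named Tuba1b (ENSRNOG00000053468, chromosome 7 from 130081032 to 130196186, minus strand) joins separate groups of exons. One lies from 130090665 to 130093644 and holds 1618 nt of exon, and another lies from 130113199 to 130116912 and holds 2933 nt. Each of these groups has at least 1 exon of 149 nt and an exon of 223 nt, the sizes also found in Tuba1c and Tuba4a. RefSeq places Tuba1a beside Tuba1b on that chromosome, so the reads of Tuba1a and Tuba1b cannot be told apart in this row. The Tubb2a row (ENSRNOG00000017558, chromosome 17 from 30747503 to 30800714, 5001 nt of exon) contains 1420 of the 1431 nt of the Tubb2b row (ENSRNOG00000017445, chromosome 17 from 30747734 to 30750638), on the same strand. The Tubb2b row nonetheless held 26276 to 50804 reads per library. In each control library the Tubb2a row held fewer reads than the Tubb2b row (18414 against 26276 in control replicate 1). Reads in the shared exons were thus not all counted for both rows. The sources used here do not give how those reads were assigned, so the split between these rows is uncertain. Values for both rows taken as 1 are given below and assume that no read was counted in both.

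**Figure D1:**
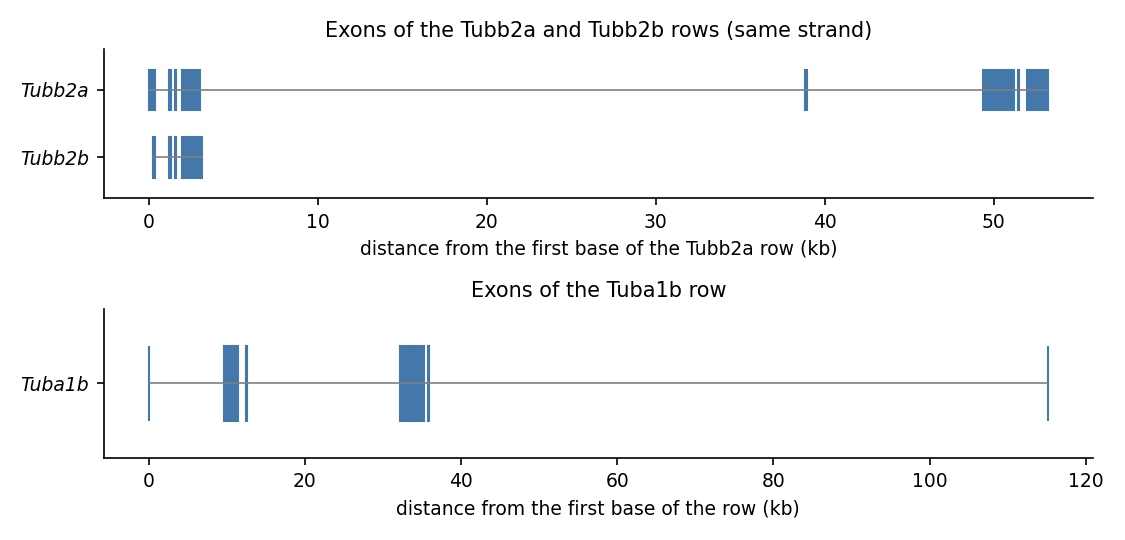
Exons (blue boxes) of the Tubb2a and Tubb2b rows and of the Tuba1b row, plotted by distance in kb from the first base of the Tubb2a row (upper panel) or of the Tuba1b row (lower panel). The Tubb2b exons coincide with the first group of Tubb2a exons, and the Tuba1b row holds separate groups of exons.

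The libraries held 14030961 to 25734737 reads in genes, as calculated from the deposited FPKM (fragments per kilobase of exon, scaled to the reads of the library), and 3 reads of a gene with 1 kb of exon came to 0.117 to 0.214 FPKM. Against the label whole brain, the summed FPKM of 10 midbrain markers was 0.631 to 1.28 in control libraries and 25.5 to 33.6 in CR libraries, and that of 9 markers of hindbrain and cord was 0.229 to 0.427 and 11.2 to 52.8, the last in CR replicate 3. Pou4f2, Hoxb3, Hoxb5, Hoxa2 and Hoxa3 had no read in any control library. The 10 dorsal telencephalic markers summed to 507 to 624 FPKM in control and to 199 to 300 FPKM in CR. Y-linked genes summed to between 46.2 and 50.2 FPKM in control replicate 3 and CR replicates 1 and 3 and to at most 0.362 FPKM in the others. Each comparison of CR with control below therefore runs across libraries that also differ in regional markers, and the part of region in any tubulin difference was not tested. In bulk tissue, fewer cells of a type and less RNA per cell cannot be told apart.

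Several tubulin rows were among the most abundant in the tables. The 9 rows took 1.78% to 2.05% of all assigned reads in control libraries and 1.78% to 1.92% in CR libraries. By mean FPKM over the 6 libraries, the Tuba1b row was number 19 and Tubb5 number 20 of all genes, followed among tubulins by Tubb3 (number 29) and Tubb2b (number 32). The Tuba1b row and Tubb5 could not be ordered, since each was higher in some libraries. Tubb5 was above Tubb3, and Tubb3 above Tubb2b, within each of the 6 libraries, although the ranges of these neighbours overlapped across libraries. The Tubb2a row, Tubb4a and Tubb4b followed, at 113 to 396 FPKM, and Tuba4a and Tubb6 were low, at 5.80 to 15.9 FPKM. All values per length in the Tuba1b and Tubb2a rows are averages over joined exons, so their place in this order holds for the rows and not for single genes.

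Setting CR against control shows which tubulin rows differed between these libraries, which also differed in regional markers. Tuba4a, the Tubb2a row and Tubb4b were higher in CR, by 37.0% to 78.1% in mean FPKM, and the Tubb2b row was 11.3% lower. The Tuba1b row, Tubb5, Tubb4a and Tubb6 differed by less than 4% in mean FPKM, and Tubb3 by -12.8%, none of them past the threshold. With limma on log2(FPKM + 1) and an adjusted p under 0.05, 4 of 9 rows passed, 3 higher and 1 lower, while 33.9% of all 15247 genes tested passed, 17.7% as higher and 16.2% as lower. Of the 639 genes that averaged 100 FPKM or more, as 7 of the 9 tubulin rows did, 43.8% passed. The count for tubulins is thus near the background, and the median log2 fold change of the 9 rows was -0.02 against 0.01 for all genes tested. The groups were fully apart, with no overlap, in 5 rows, against 50.3% of all genes tested; CR was above in 3 (26.1% of all) and below in 2 (24.3% of all).

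**Figure D2:**
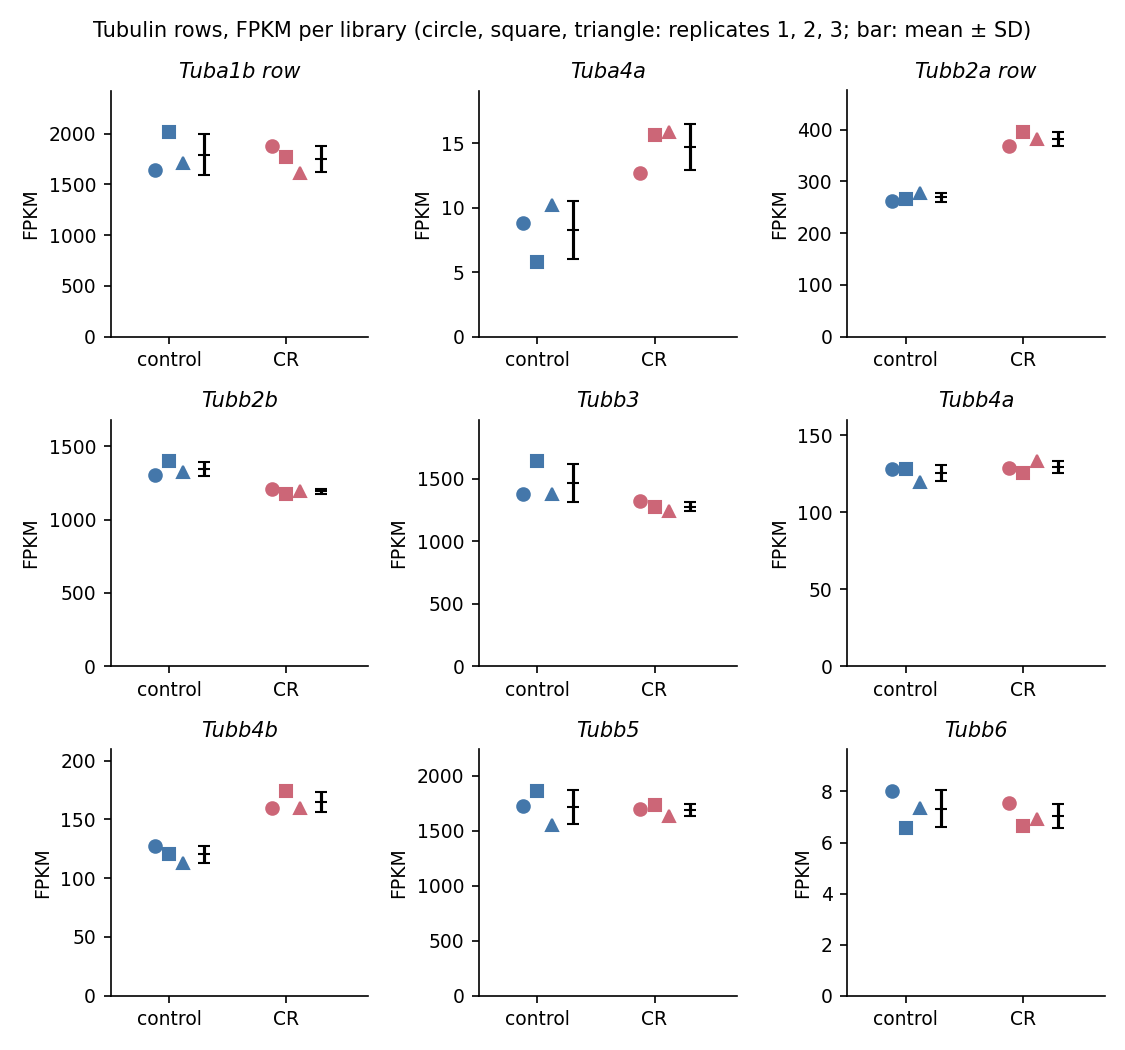
FPKM of each tubulin row in every library (control blue, CR red; circles, squares and triangles are replicates 1, 2 and 3; black bars are mean ± SD, n = 3), with axes from 0. Tuba4a, the Tubb2a row and Tubb4b have all CR values above all control values, and Tubb2b and Tubb3 have them below.

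Among the alpha-tubulins, Tuba4a changed and the abundant row did not pass. Tuba4a encodes the alpha isotype whose gene, unlike the other main ones, does not encode the final tyrosine that is otherwise removed and restored on alpha-tubulin. Tuba4a stood at 8.78, 5.80 and 10.2 FPKM in the control libraries and at 12.7, 15.6 and 15.9 FPKM in the CR libraries, each in the order of their replicate numbers, as below. These values rest on 255 to 845 reads. All CR values were above all control values, with CR replicate 1 the nearest to control. The log2 fold change of Tuba4a was 0.79 (SE 0.18, limma adjusted p = 0.0138). The call was lost without CR replicate 2 (limma adjusted p = 0.0533) and without CR replicate 3 (limma adjusted p = 0.0517). The Tuba4a row lies on chromosome 9 from 76709614 to 76713918, with 2069 nt of exon.

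The Tuba1b row, the most abundant tubulin row by its mean, was at 1642, 2021 and 1710 FPKM in control and at 1876, 1767 and 1616 FPKM in CR. The groups overlapped, and control replicate 2 was the highest library and CR replicate 3 the lowest. Its fold change on the scale of the test was 0.981, with a 95% confidence interval from 0.842 to 1.14. Within each library the log2 ratio of Tuba4a to the Tuba1b row was -7.79 ± 0.57 (SD, n = 3) in control and -6.90 ± 0.28 in CR, without overlap (exact permutation p = 0.10, two-sided, the smallest that 3 against 3 allows; 0.125 adjusted over 5 ratios). The difference of 0.89 was 0.57 without control replicate 2 (exact permutation p = 0.20). Tuba4a remained a minor part of the alpha sum, at 0.471% ± 0.163 and 0.840% ± 0.155 (SD, n = 3). That sum takes the Tuba1b row as an average over joined exons. The alpha sum and the Tuba4a share thus hold for the rows and not for single genes.

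Of the beta isotypes best known from neurons, the Tubb2a row was higher and the Tubb2b row lower in CR. Tubb2a and Tubb2b lie side by side on chromosome 17 and encode nearly the same protein. The Tubb2a row was at 262, 266 and 278 FPKM in control and at 368, 396 and 381 FPKM in CR. Each group was narrow and the gap between them was wide, with a log2 fold change of 0.50 (SE 0.05, limma adjusted p = 0.000688). The Tubb2b row was at 1309, 1401 and 1326 FPKM in control and at 1208, 1176 and 1195 FPKM in CR. The groups did not overlap, but the distance between the lowest control and the highest CR library was small. The log2 fold change of Tubb2b was -0.17 (SE 0.05, limma adjusted p = 0.0372). That call was lost when any of the 6 libraries was left out (limma adjusted p = 0.0530 to 0.135), with median-ratio size factors (limma adjusted p = 0.0690) and with 5 other settings given in the closing part.

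Taken as 1 row of 5012 nt, Tubb2a and Tubb2b were at 635, 666 and 656 FPKM in control and at 712, 731 and 721 FPKM in CR. For this, the reads of both rows were added and divided by the joined exon length. All CR values of the joined row lay above all control values, and its mean was 10.6% higher in CR (log2 fold change 0.15, SE 0.05, limma adjusted p = 0.0415). This call, too, was lost without any single library (limma adjusted p = 0.0613 to 0.142) and with median-ratio size factors (limma adjusted p = 0.103). The FPKM of the separate rows moved in opposite directions, so the direction and the separation hold for this way of joining. They do not hold for a plain sum of the FPKM of both rows, which was not tested. In that sum the groups overlapped and the mean was lower in CR. The Tubb2b row fell from a mean of 1345 to 1193 FPKM, more than the Tubb2a row rose, from 269 to 382 FPKM. The log2 ratio of the Tubb2a row to the Tubb2b row was -2.32 ± 0.07 in control and -1.64 ± 0.07 in CR (SD, n = 3), a 1.60-fold difference without overlap (exact permutation p = 0.10, 0.125 adjusted over 5 ratios). The Tubb2a row also overlaps Bphl on the other strand by 1058 nt, and Bphl held 582 to 1542 reads in all against 18414 to 51014 for the Tubb2a row.

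Tubb3, the isotype used as a neuronal marker, was at 1380, 1640 and 1374 FPKM in control and at 1317, 1272 and 1239 FPKM in CR. Its CR values were all below its control values, and control replicate 2 stood well above the other control libraries. The log2 fold change of Tubb3 was -0.19 (SE 0.08, limma adjusted p = 0.0973), which did not pass, whereas limma-voom on reads gave an adjusted p of 0.0386. Without control replicate 2 the log2 fold change of Tubb3 was -0.11 (limma adjusted p = 0.215). The log2 ratio of Tubb3 to the broadly expressed Tubb5 was -0.23 ± 0.08 in control and -0.41 ± 0.04 in CR (SD, n = 3), without overlap (exact permutation p = 0.10, 0.125 adjusted over 5 ratios). In the same libraries 10 markers of differentiated neurons summed to 2629 to 2919 FPKM in control and to 3310 to 3477 FPKM in CR, with 7 of the 10 higher and 1 lower by limma (17.7% and 16.2% of all genes). Their part in the Tubb3 values was not tested. Tubb3 (ENSRNOG00000017209) lies on chromosome 19 from 51457184 to 51466243.

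Tubb4a, an isotype of neurons and oligodendrocytes whose mutations cause a disorder of myelin in humans, was at 128, 128 and 120 FPKM in control and at 129, 126 and 133 FPKM in CR. The groups overlapped, and the 95% confidence interval of its fold change ran from 0.955 to 1.11. The 10 oligodendrocyte markers summed to 65.9 to 76.8 FPKM in control and to 86.5 to 101 FPKM in CR.

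Tubb4b, an isotype found in many tissues and used in the axonemes of motile cilia, was at 127, 121 and 113 FPKM in control and at 159.5, 175 and 160.2 FPKM in CR. Every CR library was above every control library. The log2 fold change of Tubb4b was 0.45 (SE 0.06, limma adjusted p = 0.00186), and it kept its direction and its call under all 18 alternatives (limma adjusted p = 0.000277 to 0.00947). Tubb4a was above Tubb4b in 3 of 3 control libraries and below it in 3 of 3 CR libraries. The log2 ratio of Tubb4a to Tubb4b was 0.06 ± 0.04 in control and -0.35 ± 0.11 in CR (SD, n = 3), without overlap (exact permutation p = 0.10, 0.125 adjusted over 5 ratios). The 5 markers of ependyma and motile cilia found in the tables summed to 12.9 to 18.8 FPKM in control and to 22.2 to 27.5 FPKM in CR. Of the 4 tested, 1 passed as higher (17.7% of all genes), and 3 of the 5 had CR fully above control (26.1% of all genes). Rsph1, 1 of these 5 markers, was at 7.89 ± 1.88 and 13.6 ± 1.32 FPKM (SD, n = 3), a large part of the sum. The 8 astrocyte markers summed to 197 to 238 and 339 to 375 FPKM. The part of these cells in the Tubb4b difference was not tested. Tubb4b (ENSRNOG00000010170) lies on chromosome 3 from 8037799 to 8040296, and Fam166a, which overlaps it on the other strand by 163 nt, held 15 to 33 reads.

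Tubb5, the abundant isotype of dividing and many other cells, was at 1726, 1867 and 1554 FPKM in control and at 1702, 1736 and 1635 FPKM in CR. The control libraries spread on either side of the CR libraries, and the 95% confidence interval of the fold change was 0.873 to 1.12. Tubb6, a low isotype in brain, was at 8.04, 6.57 and 7.36 FPKM in control and at 7.55, 6.66 and 6.90 FPKM in CR, from 356 to 560 reads. The groups overlapped, with an interval from 0.839 to 1.12. Afg3l2, which overlaps the Tubb6 row on the other strand by 151 nt, held 626 to 1250 reads, more than Tubb6. The log2 ratio of Tubb6 to Tubb5 was -7.87 ± 0.24 and -7.91 ± 0.11 (SD, n = 3, exact permutation p = 0.80, 0.80 adjusted over 5 ratios). The 8 markers of cycling cells summed to 68.2 to 86.9 FPKM in control and to 65.4 to 71.9 FPKM in CR.

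**Figure D3:**
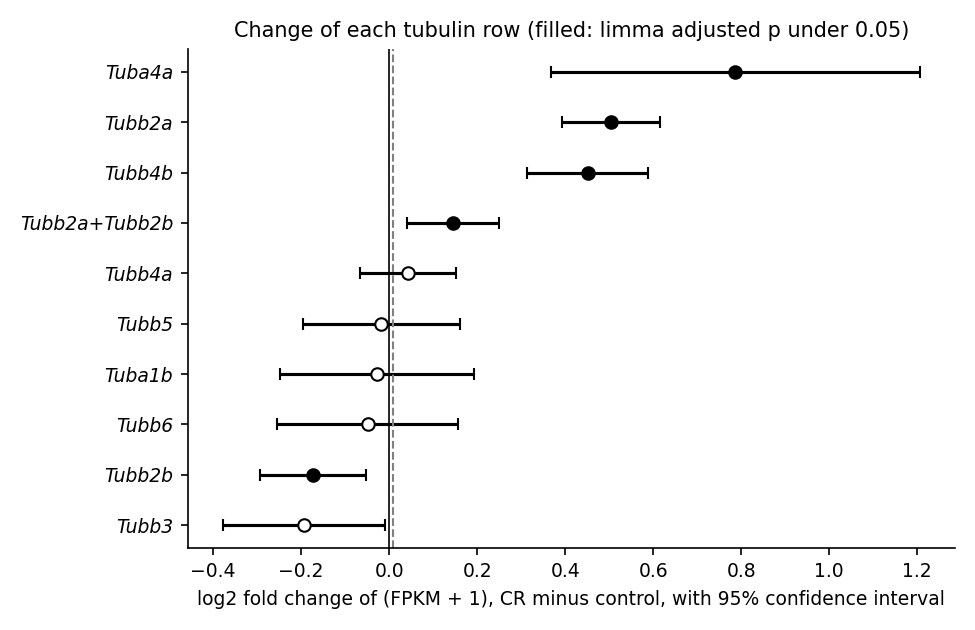
Log2 fold change of (FPKM + 1), CR minus control, of each tubulin row and of Tubb2a and Tubb2b taken as 1 row, with 95% confidence intervals from limma over 3 libraries a group. Filled points passed an adjusted p of 0.05, and the dashed line is the median of all 15247 genes tested (0.01). The calls for Tubb2b, the joined row and Tuba4a depended on single libraries.

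The summed level of tubulin did not separate the groups. The beta rows summed to 4941, 5430 and 4773 FPKM in control and to 4891, 4889 and 4750 FPKM in CR (exact permutation p = 0.40, 0.622 adjusted over 14 measures). The alpha rows summed to 1799 ± 200.2 FPKM in control and to 1768 ± 129 FPKM in CR (SD, n = 3; exact permutation p = 0.80, 0.862 adjusted). Control replicate 2 was the highest library in both sums. The beta sum adds the Tubb2a and Tubb2b rows as they stand, and the split of reads between them is uncertain.

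The make-up of the beta sum differed between the libraries of the groups by a few percentage points. Because the split of reads between the Tubb2a and Tubb2b rows is uncertain, all shares hold for the rows and not for single genes. The shares of the Tubb2a row and of Tubb4b were higher in every CR library, at 5.35% ± 0.466 and 7.89% ± 0.314 for the Tubb2a row and at 2.39% ± 0.178 and 3.40% ± 0.158 for Tubb4b (SD, n = 3). Tubb3 and Tubb2b were lower in every CR library, at 29.0% ± 1.15 and 26.4% ± 0.506 for Tubb3 and at 26.7% ± 1.01 and 24.6% ± 0.547 for Tubb2b. Each of these shares gave an exact permutation p of 0.10 and 0.233 adjusted over 14 measures, so none could pass in this design. Tubb5 held 34.0% ± 1.24 in control and 34.9% ± 0.563 in CR, and the shares of Tubb4a and Tubb6 overlapped as well.

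**Figure D4:**
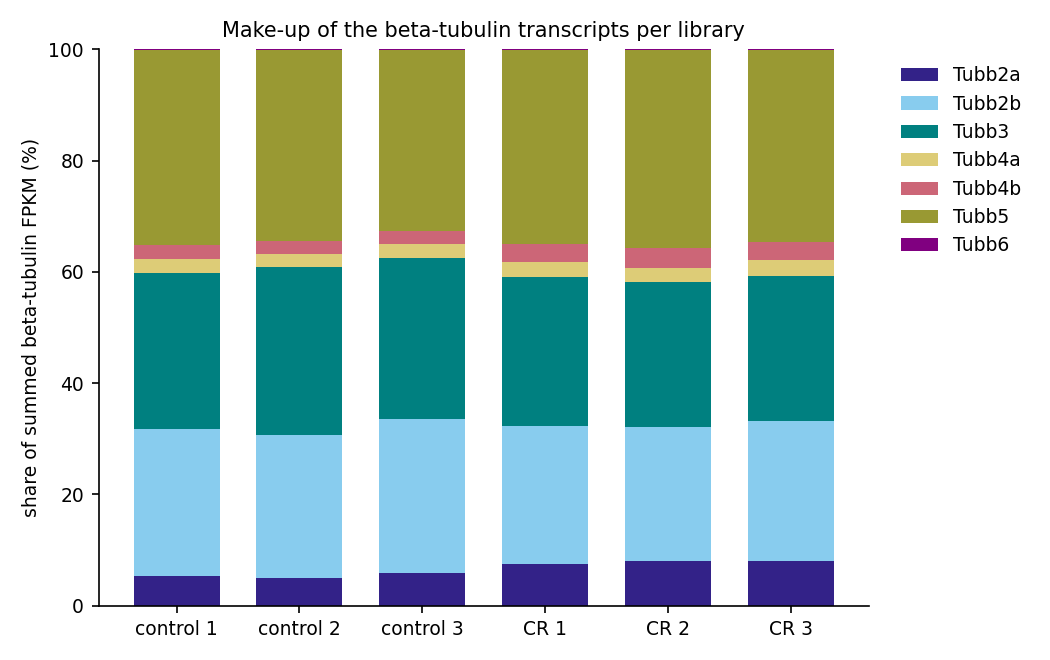
Share in percent of each beta-tubulin row in the summed beta-tubulin FPKM of each of the 6 libraries, stacked to 100%. Tubb5, Tubb3 and Tubb2b fill most of every bar, and the Tubb2a row holds 4.90% to 5.83% in control and 7.53% to 8.11% in CR. The split of reads between the Tubb2a and Tubb2b rows is uncertain, so the shares hold for the rows.

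Of 77 tested genes in 6 lists around the tubulins, 23 (29.9%) were called, against 33.9% of all genes tested, so the share was near the background. The calls numbered 14 without control replicate 2, 12 without CR replicate 2 and 12 without CR replicate 3. The other members of the tubulin superfamily were examined from a list of 10, of which 9 were in the tables and 6 reached the level needed for testing. CR was higher in 2 of these (17.7% of all genes), lower in none (16.2% of all genes), and 4 missed the threshold. Tubg2, a gamma-tubulin of the ring complexes that seed microtubules, rose from 7.98 ± 0.112 to 12.1 ± 0.464 FPKM (SD, n = 3; log2 fold change 0.55, SE 0.06, limma adjusted p = 0.00112). The main gamma-tubulin gene Tubg1 was at 23.3 to 26.6 FPKM in control and at 24.5 to 26.0 in CR and did not pass. Tuba8 was near the floor, at 0.139 to 0.492 FPKM in control and 0.682 to 1.21 FPKM in CR from 7 to 62 reads (limma adjusted p = 0.0434), and its call was lost in 10 of 16 alternatives (limma adjusted p up to 0.146), among them without control replicate 1 or 2 and without any CR library. Tuba1c, which encodes a close relative of Tuba1a and Tuba1b, was at 11.0 to 15.1 FPKM and did not pass. Tubb1, the isotype of platelets, had at most 4 reads, and Tubal3 had none.

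New tubulin is folded by the prefoldin and CCT chaperonin complexes and then assembled into dimers by the tubulin cofactors. Of 23 tested genes of this path, 4 passed (3 higher and 1 lower in CR) and 19 did not, against 33.9% of all genes called, with a median log2 fold change of 0.02. Arl2, the small GTPase that works with the cofactors, rose from 16.0 ± 0.966 to 20.5 ± 0.642 FPKM (SD, n = 3). The prefoldin subunit genes Pfdn1 (85.0 ± 0.758 and 99.0 ± 3.55 FPKM) and Pfdn5 (208 ± 1.90 and 236 ± 1.11 FPKM) rose as well, the second of them not with quantile normalization (limma adjusted p = 0.309). The CCT subunit gene Cct3 was at 111 ± 4.37 and 98.2 ± 4.77 FPKM (limma adjusted p = 0.0375), a call lost in 8 of 17 alternatives (limma adjusted p up to 0.127), among them without control replicate 2 or 3 and without CR replicate 2 or 3. Tubulin also controls its own mRNA through a factor that reads the nascent chain, Ttc5, and the CCR4-NOT deadenylase. Of 3 genes of this control, Cnot1, the scaffold of CCR4-NOT, was lower (21.5 ± 0.670 and 18.1 ± 0.882 FPKM, limma adjusted p = 0.0149, and 0.0600 without CR replicate 2), and Ttc5 and Cnot11 did not pass.

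Of 21 tested genes that modify tubulin tails or acetylate its lysine, 11 passed (5 higher and 6 lower in CR) and 10 did not, against 17.7% of all genes called higher and 16.2% called lower, with a median log2 fold change of 0.05. Hdac6, the deacetylase of alpha-tubulin, rose from 27.1 ± 0.645 to 35.9 ± 0.995 FPKM (SD, n = 3; log2 fold change 0.39, SE 0.05, limma adjusted p = 0.00136). Agbl3, which encodes a deglutamylase, was at 1.32 ± 0.156 and 2.22 ± 0.294 FPKM (limma adjusted p = 0.0158), a call lost without CR replicate 3 (limma adjusted p = 0.0656) and with quantile normalization (limma adjusted p = 0.0541). Ttll11, a polyglutamylase gene, was at 1.89 ± 0.437 and 2.78 ± 0.164 FPKM. Its call was lost in 8 of 17 alternatives, among them without control replicate 2 or 3 and without any CR library (limma adjusted p up to 0.132). Ttll4, also a polyglutamylase gene, was at 5.80 ± 0.609 and 4.19 ± 0.334 FPKM, a call lost without control replicate 1 and without CR replicate 1 or 3 (limma adjusted p up to 0.0638).

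Nucleation genes, which encode the gamma-tubulin ring and augmin complexes, gave 1 call among 17 tested members, a lower one, and 16 missed the threshold, against 33.9% of all genes called. The call was for the augmin gene Haus6 (6.06 ± 0.341 and 4.43 ± 0.118 FPKM, limma adjusted p = 0.00822). Of 7 severing genes, 4 passed (2 higher and 2 lower in CR) and 3 did not, against the same 33.9%. Katna1, the catalytic katanin subunit, fell from a mean of 10.4 ± 0.663 FPKM in control to 6.58 ± 0.373 in CR (log2 fold change -0.58, SE 0.07, limma adjusted p = 0.00174), and Spast, which encodes spastin, from 34.6 ± 0.720 to 26.8 ± 0.216 FPKM. Fign, which encodes fidgetin, was at 1.45 ± 0.648 and 2.92 ± 0.350 FPKM (limma adjusted p = 0.0275). The Fign call was lost in 6 of 17 alternatives, among them without control replicate 2 and without CR replicate 2 or 3 (limma adjusted p up to 0.0917).

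**Figure D5:**
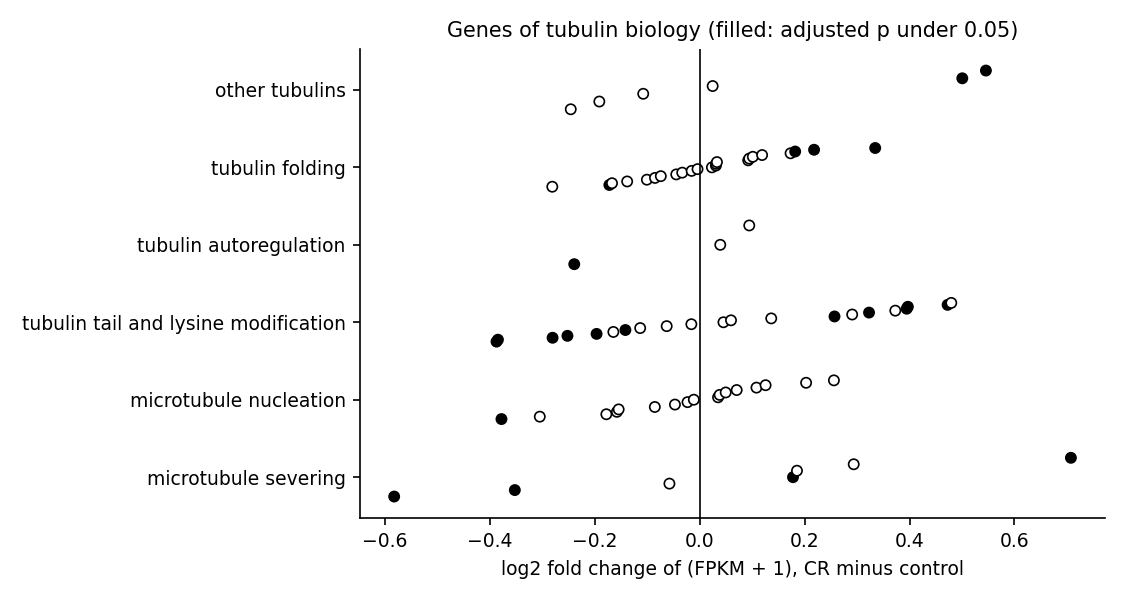
Log2 fold change of (FPKM + 1), CR minus control, of each tested gene in the lists of tubulin biology. Each point is a gene, spread vertically by rank within its list, and filled points passed a limma adjusted p of 0.05; nucleation genes show 1 filled point of 17 and modifying enzymes 11 of 21, on either side of 0.

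The 5 genes whose profile over the 6 libraries lay nearest to Tuba4a, the row with the highest log2 fold change, were Rsph1, Kifc2, Ahi1, Lypd1 and Atp1b2. Likeness was the root mean square difference of centred log2(FPKM + 1), searched over 5863 genes with at least 10 FPKM, and ranged from 0.08 for Rsph1, which encodes a radial spoke protein of motile cilia, to 0.12 for Atp1b2. Rsph1, already counted among the markers of ependyma and motile cilia above, was at 7.89 ± 1.88 FPKM in control and 13.6 ± 1.32 FPKM in CR (SD, n = 3). The nearest to Tubb3, the row with the lowest log2 fold change, were Matr3, Ptms, Gabpb1, Pkn3 and Eif2b4, at 0.02 to 0.04. Matr3, which encodes a nuclear matrix protein that binds RNA, was at 135 ± 14.4 FPKM in control and 117 ± 6.26 FPKM in CR. Over 6 libraries in 2 groups, such likeness follows mainly the difference between the groups.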

How the data were processed

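Polyadenylated RNA was measured in 3 control and 3 CR libraries, grouped by their titles. Per the labels' protocols, libraries were made with a stranded kit after TRIzol extraction. The submitters' processing notes name STAR 2.7.10a, featureCounts 2.0.1, cutadapt 1.16, Trimmomatic 0.36 and Trim Galore 0.4.4, and the build mRatBN7.2, without roles or settings, so the strand setting and the handling of reads shared by overlapping or nearly identical genes are not given in the sources used here. The authors deposited FPKM per Ensembl gene with exon lengths. All values were whole multiples (100% within 0.05 reads) of the worth of 1 read, which gave reads and depths. Floors cover counting error only.

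Genes that averaged 0.5 FPKM or more were tested with limma 3.58.1 (R 4.3.3) on log2(FPKM + 1), with a trend, two-sided, adjusted by Benjamini-Hochberg over 15247 genes, threshold 0.05. Fold changes on that scale understate those of low genes. Sums, shares and ratios were tested by exact permutation over libraries. A symbol shared by several IDs was taken from its most abundant ID. Members and lists were chosen with earlier results of these data known. All members were named, and from each of 6 lists the 4 members past the threshold with the largest absolute change (2 by p if none passed), and 5 nearest profiles. A gene that this rule names is not reported here. Promoters came from RefSeq GRCr8. The test was checked on simulated reads with the same dispersion for every gene and no difference in region. That check does not show that the calls made here are right. Alternatives were pseudocounts 0.1 and 0.5, no filter, a minimum mean of 2 FPKM, quantile normalization, median-ratio size factors, no trend, robust moderation, replicate block, limma-voom, a Y-linked covariate and leaving out each library; Tubb2a and Tubb2b as 1 row and the ratio of Tuba4a to the Tuba1b row were added after the data were seen, since Tuba1a had no row.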

Additional observations from a re-analysis of the deposited data

How the results depend on the processing

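As reported, 5173 genes were called, 3210 to 5042 when a library was left out (3210 without CR replicate 2 and 3308 without CR replicate 3). Of the tubulin rows 4 were called, 2 to 3 when a library was left out (2 without CR replicate 2 and 2 without CR replicate 3), 3 with Tubb2a and Tubb2b as 1 row and 5 with limma-voom, which added Tubb3. The 6 gene lists held 23 calls, 12 to 21 when a library was left out (14 without control replicate 2, 12 without CR replicate 2 and 12 without CR replicate 3). The Tubb2a row and Tubb4b kept direction and call under every alternative run. The Tubb2b call was also lost with no filter (limma adjusted p = 0.128), quantile normalization (0.0815), no trend (0.0621) and the Y-linked covariate (0.0760). Whether same-numbered libraries share more than a number is not given in the labels. Correlations of their deviations were 0.02, 0.02 and 0.05, and each library correlated best with its own number. With the replicate block 4445 genes and 3 tubulin rows were called. Tubb2b (limma adjusted p = 0.0770) and the joined row (limma adjusted p = 0.0763) were lost there. The sign-flip test over 3 pairs cannot go below 0.25. Differences near 0 (CR minus control) changed sign, none past a threshold. Leaving out 1 library put the log2 fold change of the Tuba1b row between -0.087 and 0.062, of Tubb5 between -0.087 and 0.046 and of Tubb6 between -0.114 and 0.013. It put the alpha sum between -106 and 82.1 FPKM, the beta sum between -342 and -13.4 FPKM, the sum of all rows between -413 and 68.8 FPKM and the tubulin share of reads between -0.0579 and 0.0782 percentage points. The alpha to beta ratio ran from -0.0021 to 0.0194, the Tubb6 share of the beta sum from -0.0131 to 0.0077 percentage points and the log2 ratio of Tubb6 to Tubb5 from -0.176 to 0.038. The libraries whose absence turned the sign were control replicate 2 and CR replicate 3 (Tuba1b row at 0.062 and 0.030, Tubb5 at 0.046 and 0.0069, alpha sum at 82.1 and 36.2, share of reads at 0.0782 and 0.0299, and, for control replicate 2, the sum of all rows), control replicate 1 and CR replicate 1 (alpha to beta ratio at -0.0021 and -0.0019), and control replicates 1 and 3 and CR replicate 2 (Tubb6 share at 0.0077, 0.0034 and 0.0039, its ratio at 0.026, 0.038 and 0.021, and Tubb6 itself at 0.013 without control replicate 1). The log2 fold change of Ttl ran from -0.0405 to 0.0018, the latter without control replicate 3. Tubb5 was at 0.030 with the Y-linked covariate, and Tubb4a at -0.012 with quantile normalization. The causes were not tested. With 3 libraries a group, exact permutation cannot go below 0.10.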

Other observations

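Of the 11 called genes that modify tubulin, 7 were not described above and are all given here, with Ttl, Sirt2 and Ttll1, which did not pass. All were chosen after their values were seen, from a list that went both ways. Vash1 and Vash2, the vasohibins that remove the final tyrosine of alpha-tubulin, and Svbp, their binding partner, were lower in CR, while Ttl, the ligase that restores that tyrosine, was at 26.2 ± 0.820 and 25.9 ± 0.499 FPKM (SD, n = 3) and did not pass (limma adjusted p = 0.819). Vash1 was at 36.8, 36.1 and 35.2 FPKM in control and at 30.2, 28.9 and 29.5 FPKM in CR, and its call (limma adjusted p = 0.00358) held in 17 of 17 alternatives. Vash2 was at 41.0 ± 2.66 and 35.6 ± 0.595 FPKM (SD, n = 3) and Svbp at 73.6 ± 6.20 and 61.6 ± 4.62 FPKM. The calls for Vash2 (limma adjusted p = 0.0306) and Svbp (limma adjusted p = 0.0380) were lost in 8 and 7 of 17 alternatives, without control replicate 1 or 2 and without CR replicate 2 or 3 for either gene, and without CR replicate 1 for Vash2 (limma adjusted p up to 0.101 and 0.125). Atat1, the acetyltransferase of alpha-tubulin, was at 92.3, 94.3 and 91.8 FPKM in control and at 82.4, 83.8 and 85.9 FPKM in CR (limma adjusted p = 0.0285). The Atat1 call was lost in 8 of 17 alternatives, among them without control replicate 1 or 2 and without any CR library (limma adjusted p up to 0.0903). Of the deacetylase genes, Hdac6 was higher, as given above, and Sirt2, at 13.8 ± 0.708 and 14.4 ± 0.650 FPKM, did not pass (limma adjusted p = 0.496). Tpgs1 and Tpgs2, subunits of the polyglutamylase complex, were at 20.6 ± 2.58 and 26.0 ± 2.57 FPKM and at 46.4 ± 1.06 and 55.6 ± 1.80 FPKM. Ttll1, of the same list, went the other way, at 34.9 ± 0.749 and 32.2 ± 1.52 FPKM, and did not pass (limma adjusted p = 0.121). The Tpgs2 call (limma adjusted p = 0.00497) held in 17 of 17 alternatives, and that of Tpgs1 (limma adjusted p = 0.0446) was lost in 7, among them without control replicate 2 or 3 and without CR replicate 2 or 3 (limma adjusted p up to 0.146). Ttll7, a polyglutamylase gene, was at 10.2 ± 0.333 and 7.62 ± 1.07 FPKM (limma adjusted p = 0.0179), a call lost without CR replicate 1 or 2 (limma adjusted p up to 0.0680).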
